A study of Mus musculus with 8 samples.

Results

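The 7 genes Klrg1, Klrd1, Klrc1, Klrc2, Klrk1, Klre1 and Klrb1c encode receptors of the killer cell lectin-like family, and each had a row in all 8 count tables, among 24405 genes measured in the series. They were followed in cells with at least 500 UMIs (unique molecular identifiers, each standing for 1 captured mRNA), of which there were 47542. Natural killer (NK) cells were taken as cells with at least 1 Ncr1 UMI and no UMI of Cd3d, Cd3e or Cd3g, which gave 380 cells. CD8 T cells were taken as cells with at least 2 UMIs of Cd8a and Cd8b1 together, which gave 10917 cells, and these were divided into 8039 cells with at least 1 UMI of the granzyme gene Gzma (Gzma+) and 2878 without (Gzma-). Only 15 cells passed both gates.

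Klrd1 encodes CD94, which reaches the cell surface paired with an NKG2 chain. With NKG2A, the product of Klrc1, the pair is inhibitory, and with NKG2C, the product of Klrc2, it is activating; both pairs read the nonclassical class I molecule Qa-1 on the cells they meet. Klrk1 encodes NKG2D, an activating receptor for stress-induced ligands that signals through the adaptors Hcst and Tyrobp. Klre1 encodes a receptor that partners other lectin-like chains, Klrb1c encodes the NK1.1 antigen of C57BL/6 mice, and Klrg1 encodes an inhibitory receptor for cadherins that is widely used as a marker of terminally differentiated effector T cells and mature NK cells.

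The 8 libraries came from mouse liver, heart and kidney transplants taken on day 7, and each was 1 Microwell-seq library of 10000 barcodes. BALB/c organs had been placed in C57BL/6 recipients without immunosuppression, the liver in its normal position and the heart and kidney elsewhere; the labels give all samples as male BALB/c mice of 8 weeks. Blood mononuclear cells (PBMC) and tissue-infiltrating lymphocytes (TIL) isolated on a density gradient were profiled for all 3 organs, and parenchymal cell suspensions (PC) for liver and kidney only. There was 1 library per organ and cell source and no untransplanted control among them, so organs could not be tested against each other, and blood and grafts came from 2 recipients per organ. Which of them entered which library was not stated, so libraries of 1 organ can share animals. Tests below use libraries as the replicates.

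Libraries held 3418722 to 19171264 UMIs and 795 to 10000 cells above the UMI minimum. The library labelled heart TIL carried all 8 of 8 hepatocyte markers at 699 CPM (UMIs of the gene in each 1e+06 UMIs counted), with 1056 Alb UMIs, and its cardiomyocyte markers summed to 26.1 CPM. The library labelled liver TIL carried no Alb UMI and all 8 of 8 cardiomyocyte markers at 176 CPM, so these libraries are named below as labelled, and tests were repeated without them. NK cells numbered 24 to 126 in 6 libraries, 2 in kidney TIL and 0 in kidney PC, and the comparison of NK with CD8 T cells used the 6. In these 6 libraries 11 to 12 of 12 NK markers were detected, at 12027 to 18352 CPM in sum. Macrophages and monocytes were cells with at least 2 UMIs of Csf1r, Adgre1, C1qa, C1qb and C1qc together. They held no Cd3d, Cd3e, Cd3g or Ncr1 UMI and fewer than 2 UMIs of Cd79a and Cd79b. In them the same list, which includes genes shared with myeloid cells, reached 6854 to 11625 CPM, with 6 to 11 markers detected. Ncr1 is on the list, was required by the NK gate and excluded by the macrophage gate, so part of this difference was set by the gates. The gates were not free of other RNA. Neutrophil markers summed to 24053 to 139098 CPM in the NK cells of the PBMC libraries, and macrophage markers to 8104 to 16603 CPM in those of the graft libraries. The macrophage list of these sums holds Lyz2 and Cd68 besides the genes of the macrophage gate. At least 2 UMIs of the gate genes alone were held by up to 70.8% of NK cells in the graft libraries. They were held by 62.1 to 67% of the CD8 T cells of liver PC and the libraries labelled heart TIL and liver TIL, against 0 to 1.52% in PBMC. These shares leave out Lyz2 and Cd68, so they do not show PBMC cells as free of macrophage marker RNA. Barcodes found in more than 1 library made up 11.3% of the NK cells and 10.8% of the CD8 T cells.

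All 7 genes lie on mouse chromosome 6 (GRCm38). Klre1 (129577905 to 129585827, forward strand), Klrd1 (129591782 to 129598775, forward), Klrk1 (129610323 to 129623864, reverse), Klrc2 (129647496 to 129660689, reverse) and Klrc1 (129666015 to 129678973, reverse) stand side by side within 101 kb, and only 5.33 kb separates Klrc2 from Klrc1. Klrb1c (128778485 to 128789215, reverse) lies 789 kb before Klre1, and Klrg1 (122270596 to 122282882, reverse) another 6.50 Mb away. RefSeq promoter windows of 300 bases (GRCm38.p6) were matched for 5 of the 7 genes, and the 250 bases before the first RefSeq start are shown for the 3 that span the range of differences between NK and CD8 T cells described below, from Klrc1, which was not called, through Klrk1 to Klrb1c, which had the steepest difference. Each is written 5′ to 3′ on the gene's strand, the reverse strand in all 3 cases, and capitals mark the letters TGTGGT or their reverse complement ACCACA, the core motif bound by RUNX factors. The windows are chr6:129678974-129679223 for Klrc1, chr6:129623865-129624114 for Klrk1 and chr6:128788642-128788891 for Klrb1c. The positions of the genes are those of GENCODE, whose Klrb1c begins further upstream than the RefSeq transcript, so that the Klrb1c window lies within its GENCODE span.
Klrc1: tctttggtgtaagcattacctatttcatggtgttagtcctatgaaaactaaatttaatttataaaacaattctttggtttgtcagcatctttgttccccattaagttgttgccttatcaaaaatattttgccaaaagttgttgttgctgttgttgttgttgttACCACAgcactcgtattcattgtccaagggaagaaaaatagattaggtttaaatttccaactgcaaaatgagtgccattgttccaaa
Klrk1: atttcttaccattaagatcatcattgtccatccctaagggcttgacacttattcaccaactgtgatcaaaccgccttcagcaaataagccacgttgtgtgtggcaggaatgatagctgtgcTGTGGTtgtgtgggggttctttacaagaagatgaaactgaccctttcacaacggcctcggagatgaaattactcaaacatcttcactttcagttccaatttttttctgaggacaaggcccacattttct
Klrb1c: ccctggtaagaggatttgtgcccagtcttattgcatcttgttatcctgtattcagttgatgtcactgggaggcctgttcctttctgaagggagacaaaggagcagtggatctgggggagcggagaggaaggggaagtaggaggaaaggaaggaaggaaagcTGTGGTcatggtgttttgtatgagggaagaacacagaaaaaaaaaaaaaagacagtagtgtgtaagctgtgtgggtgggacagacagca
On either strand the motif stood 87 bases before the start of Klrc1, 129 before that of Klrk1, 89 before that of Klrb1c, 229 before the first start of Klre1, and 36 and 9 before the first start of Klrc2. It was present in 6 of the 7 start sites of the 5 matched genes, and in 5506 of 32851 promoter windows of the same length in the genome (16.8%). The motif was chosen after these sequences had been seen, and a match says only that the letters are there.

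All 7 genes were detected in NK cells, at levels that differed between libraries. Klrd1 reached 332 CPM in the lowest library, labelled liver TIL, with a median of 612 CPM over the 6 libraries and 1246 CPM in kidney PBMC. Klre1 ran from 332 through 489 to 1349 CPM and Klrk1 from 332 through 479 to 762 CPM, again lowest in the library labelled liver TIL and highest in kidney PBMC. Each of these lowest values rests on 6 UMIs in 24 cells. Klrb1c was at 111 to 616 CPM with a median of 260.3 CPM. Klrc1 was at 77.0 to 272 CPM, Klrc2 at 0 to 191 CPM and Klrg1 at 0 to 469 CPM. The tables hold 1 end-tagged count per molecule. How evenly the mRNAs of different genes were captured was not tested, so these values rank each gene across libraries rather than the genes among themselves.

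Kidney PBMC stood first of the 6 libraries for 6 of the 7 genes in NK cells, the exception being Klrc1, which was highest in liver PC. For Klrb1c (616 against 298 CPM in liver PBMC), Klre1 (1349 against 640.2 CPM in liver PC) and Klrg1 (469 against 163 CPM in liver PBMC), the 95% Poisson interval of kidney PBMC lay wholly above that of the next library. For Klrd1 the break came lower, between liver PC at 1130.5 CPM and heart PBMC at 632 CPM. All other neighbours in these orders overlapped in their intervals, which cover counting error only. The NK cells of kidney PBMC also held the least macrophage RNA of the 6 (1715 CPM of the marker list, against 6332 to 16603 CPM), no B cell marker, and the least neutrophil RNA of the 3 PBMC libraries (24053 CPM, against 88063 CPM in liver PBMC and 139098 CPM in heart PBMC), and the part of this in the order was not tested.

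**Figure D1:**
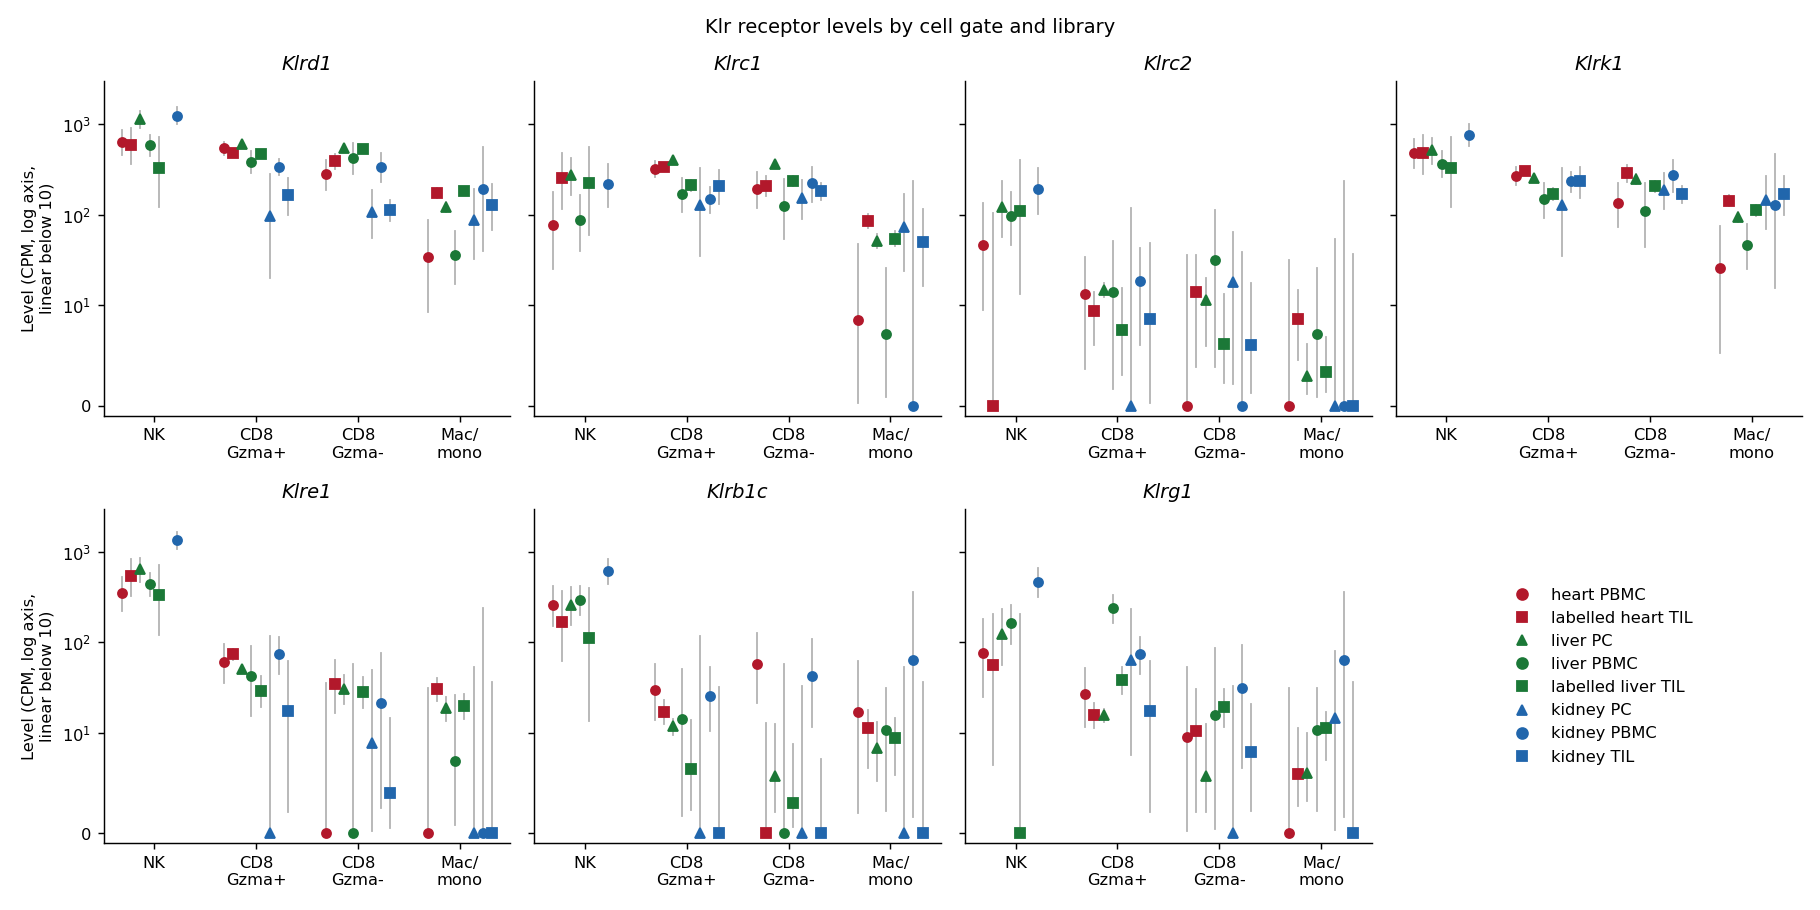
Level of each receptor gene in each of the 8 libraries, in CPM on a log axis that is linear below 10 CPM, for NK cells, Gzma+ and Gzma- CD8 T cells, and macrophages and monocytes as background; bars are 95% Poisson intervals of the UMI count. The ranges of Klrd1 and Klrc1 overlap between the 3 lymphocyte gates, whereas the lowest NK library of Klrk1 (332 CPM) lies above its highest CD8 T cell value (304 CPM). That lowest value rests on 6 UMIs, with an interval of 122 to 723 CPM that covers the CD8 T cell value. Klrb1c and Klre1 are highest in NK cells in all 6 libraries shown.

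In Gzma+ CD8 T cells, Klrd1, Klrk1, Klrc1 and Klrg1 were counted in all 8 libraries, and Klre1, Klrb1c and Klrc2 were at 0 in at least 1 of them. Klrd1 was at 96.3 to 604 CPM with a median of 427 CPM, Klrk1 at 128 to 304 CPM with a median of 233 CPM, and Klrc1 at 128 to 406 CPM with a median of 209 CPM. The medians of Klre1, Klrg1, Klrb1c and Klrc2 in the same cells were 46.6, 32.7, 13 and 11.4 CPM. Klrd1 in CD8 T cells was lowest in the kidney graft, at 123 CPM in kidney TIL and 105 CPM in kidney PC, with intervals below those of the other 6 libraries, which ran from 339 to 599 CPM. Klrg1 in CD8 T cells was highest in liver PBMC, at 170.0 CPM, and next in kidney PBMC, at 62.9 CPM, while the other 6 libraries held 9.81 to 28.7 CPM. Kidney TIL and kidney PC were again the lowest, with intervals that overlapped that of liver PC above them.

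Macrophages and monocytes, which should lack these receptors, gave the background of RNA from other cells. Their gate left out cells with a Cd3 or Ncr1 UMI, whereas the CD8 gate did not leave out cells with macrophage markers. The background shares can therefore understate the background in the CD8 gate, and by how much was not tested. After each cell was thinned to 500 UMIs, so that depth was equal, a Klrd1 UMI was found in a median of 22.8% of NK cells, 18.7% of CD8 T cells and 7.02% of macrophages and monocytes per library. The corresponding medians were 17.3, 9.56 and 4.81% for Klrk1 and 11.0, 9.16 and 2.62% for Klrc1. Klre1 was found in 21.8% of NK cells, 1.71% of CD8 T cells and 0.237% of macrophages and monocytes. Klrb1c was found in 13.6 and 0.648% and in a median of 0% of the background cells, and Klrg1 in 5.95, 0.924 and 0.326%. At their own depth (median 695 to 1499 UMIs in NK cells, 609.5 to 1698 in CD8 T cells and 581 to 1511 in macrophages and monocytes), the Klrd1 medians were 31.9, 33.4 and 10.9%. At equal depth, 33.3 to 88.7% of NK cells and 20.2 to 45.8% of CD8 T cells held at least 1 UMI of any of the 7 genes, against 2.60 to 21.0% of macrophages and monocytes, and 16.7 to 66.2% of NK cells against 1.38 to 12.6% of CD8 T cells held 2 or more of them.

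Most UMIs of every member lay outside the NK gate, and NK cells made up 0.799% of all cells and Gzma+ CD8 T cells 16.9%. Of 16333 Klrd1 UMIs, 46.4% were in Gzma+ CD8 T cells, 30.7% in other cells with a Cd3 UMI and 1.82% in NK cells. Of 9093 Klrc1 UMIs, 55.0% were in Gzma+ CD8 T cells and 0.682% in NK cells. The NK share was 11.4% of 1045 UMIs for Klrb1c, 10.4% of 2233 for Klre1, 6.79% of 545 for Klrc2 and 6.67% of 975 for Klrg1. These shares pool libraries of unequal depth and makeup, and within libraries they read otherwise. The NK share of Klrc1 exceeded the NK share of cells in 5 of the 6 libraries, with 10.1 against 6.21% in kidney PBMC and 6.52 against 1.85% in liver PBMC, and fell short of it in liver PC, with 0.381 against 0.46%. Klre1 had a larger NK share than Klrb1c in 4 of the 6, among them kidney PBMC with 33.6 against 28.6%. The NK gate asks for no Cd3 UMI, and of 761 cells with an Ncr1 UMI, 381 (50.1%) carried one.

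**Figure D2:**
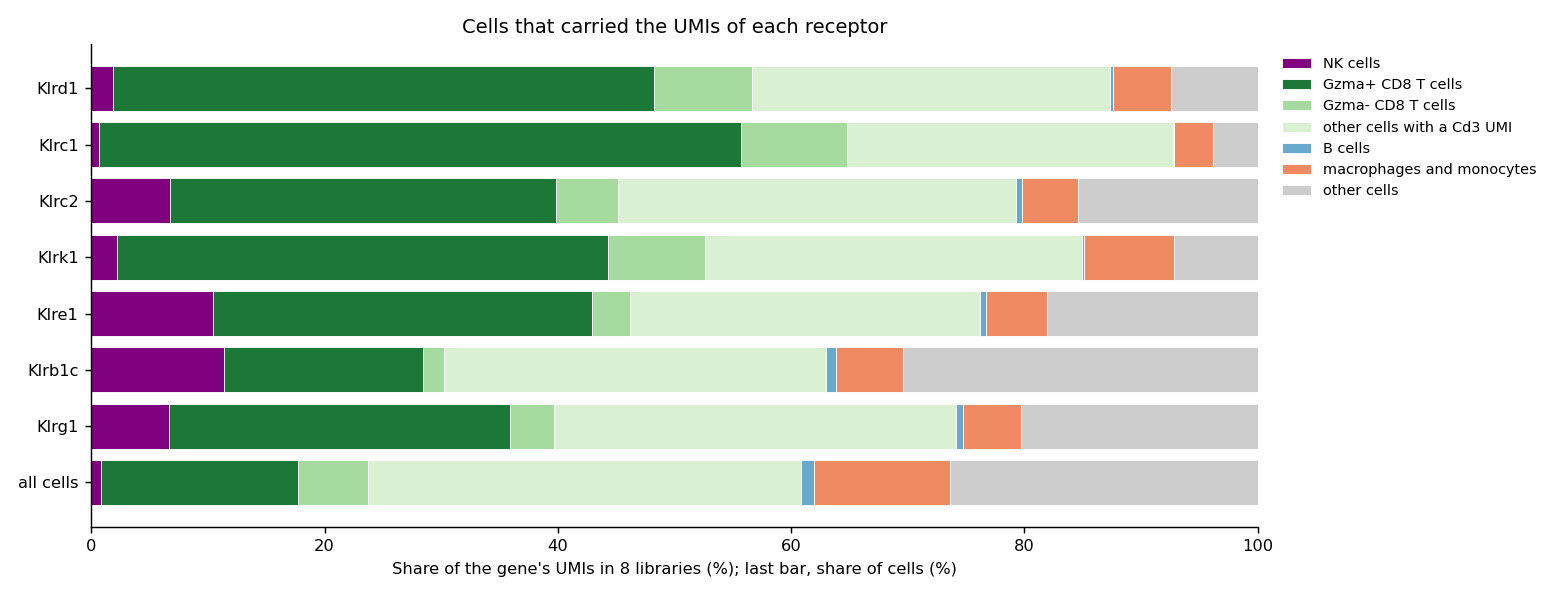
Share of each gene's UMIs, in percent over the 8 libraries together, that lay in each class of cells; the last bar gives the share of cells in each class. The NK segment runs from 0.682% for Klrc1 to 11.4% for Klrb1c, beside 0.799% of cells, pooled over libraries of unequal depth.

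The comparison of NK with CD8 T cells, paired within the 6 libraries, asked which of these receptors separated the cell types. Of the 7 genes, 6 were higher in NK cells by edgeR's quasi-likelihood test with Benjamini-Hochberg adjustment over 3244 genes, against 5.86% of all genes tested called higher, 3.11% lower and 8.97% in either direction. Klrb1c differed by 4.04 on the log2 scale (SE 0.31, 95% interval 3.42 to 4.66) and was higher in 6 of 6 libraries. Klrb1c differs in sequence between C57BL/6 and BALB/c mice and the reads had been aligned to a C57BL/6 genome, and what this did to its counts was not tested. Klre1 differed by 3.69 (SE 0.21) in 6 of 6 libraries and Klrc2 by 2.91 (SE 0.45) in 5 of 6. Klrg1 was higher by 1.82 (SE 0.40, adjusted p = 0.0020) in 4 of 6 libraries and Klrk1 by 1.18 (SE 0.16) in 6 of 6. Klrd1 was higher by 0.81 (SE 0.20, adjusted p = 0.013) in 5 of 6 libraries. Klrc1, the inhibitory partner of CD94, went the other way, with a difference of -0.49 (95% interval -0.92 to -0.06, adjusted p = 0.16), and was higher in NK cells in 1 of 6 libraries. A gene was tested if it reached 64.5 CPM in at least 2 of the 12 sums, which Klrb1c, Klrc2, Klrg1 and Klre1 did through the NK sums, with 0 to 1 CD8 T cell sums above it. Without the filter they differed by 3.71, 2.59, 1.51 and 3.35, and all 4 were called.

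**Figure D3:**
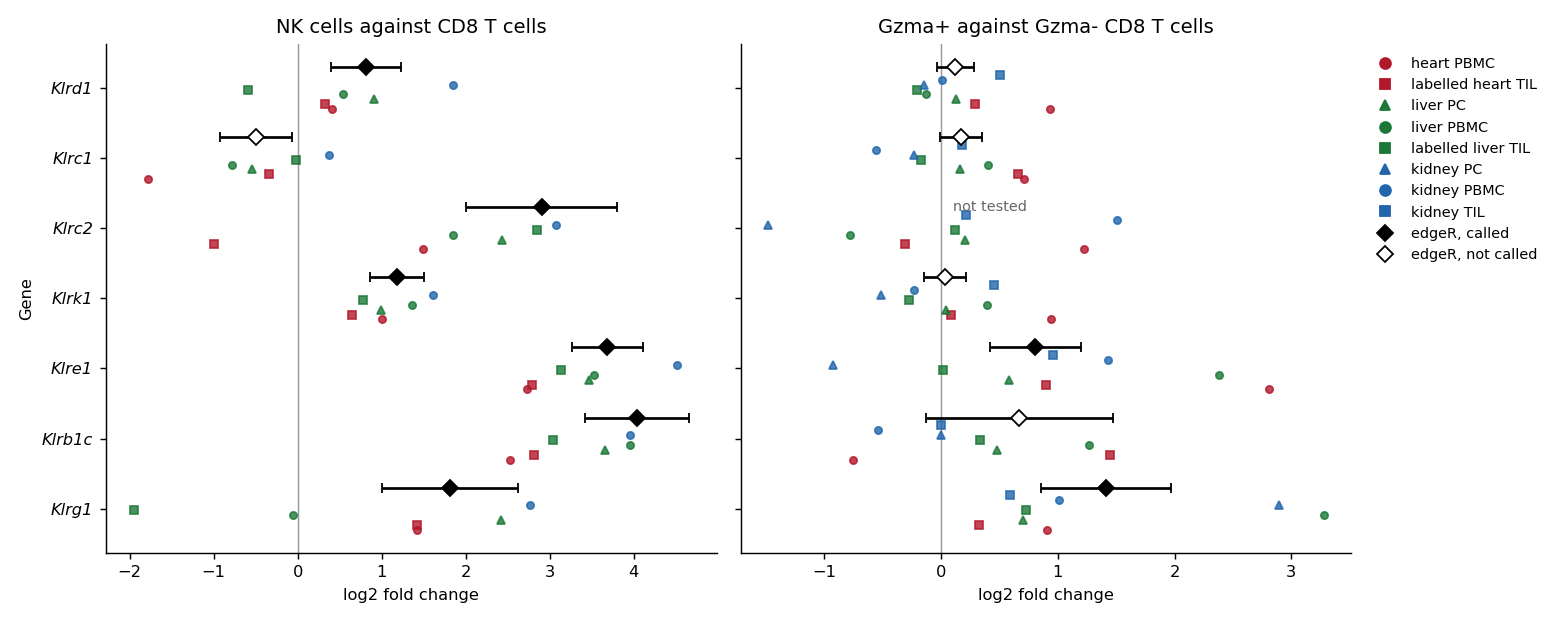
Log2 fold of each member per library (points) with the edgeR estimate and its 95% interval (diamonds, filled where the adjusted p was under 0.05), for NK against CD8 T cells and for Gzma+ against Gzma- CD8 T cells. Points are folds of CPM with 10 CPM added to both sides, which pulls genes of low level towards 0. In the second panel Klrb1c had no UMI in either group of kidney PC and kidney TIL and is drawn at 0 there. The first panel spreads from Klrc1 at -0.49 to Klrb1c at 4.04, and in the second only Klrg1 at 1.41 and Klre1 at 0.81 are filled.

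Of 17 further Klr genes on a list, 10 were tested. These passed the same filter only through NK sums, so their differences are given as a description. Klrb1a differed by 5.53, and the Ly49 receptors Klra4 by 5.19 and Klra8 by 5.06. Without the filter these 3 genes differed by 5.22, 4.81 and 4.71, and all were called. Among 11 adaptors and signalling genes, Tyrobp (1.35), which carries the signal of NKG2C, Sh2d1b1 (3.24) and the kinase Syk (1.38) were higher and none was lower. Hcst, the other NKG2D adaptor, differed by 0.36 (adjusted p = 0.12). Sh2d1b1 was counted too rarely to be tested between Gzma+ and Gzma- CD8 T cells. It could thus pass the filter here only with the help of NK sums, and its difference is a description. Tyrobp and Syk are also expressed by myeloid cells, and the neutrophil and macrophage marker lists were higher in NK than in CD8 T cells in 6 of 6 libraries (in liver PBMC 88063 against 49312 CPM and 15240 against 7688 CPM), and their part in these differences was not tested. None of 3 ligand genes was called, with H2-T23, the Qa-1 gene, at 0.31 (adjusted p = 0.56). Leaving out kidney PBMC took Klrg1 to 1.31 (adjusted p = 0.076), leaving out both libraries labelled heart TIL and liver TIL left it at 1.90 (adjusted p = 0.064), and leaving out liver PC took Klrd1 to 0.74 (adjusted p = 0.093). Klrd1 also lost its call after thinning with the gates set on the thinned counts, at 0.53 (adjusted p = 0.077). It lost the call too without a filter on low counts, at 0.46 (adjusted p = 0.081), where Klrc1 was called lower at -0.83 (adjusted p = 0.012).

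The split of CD8 T cells by Gzma asked which receptors went with this granzyme. Klrg1 and Klre1 rose in Gzma+ cells, with and without a filter on low counts, and Klrd1, Klrc1 and Klrk1 had estimates near 0. Genes of the acute phase response of the liver, Orm1 (0.91), Saa1 (0.88) and Saa2 (0.79), and the immunoglobulin gene Ighg2c (0.69), named after their values were seen, were called higher in the same cells by amounts near that of Klre1, and the part of RNA from other cells in these results was not tested. Of 5058 genes tested, 0.356% were called higher, 0.297% lower and 0.652% in either direction. Klrg1 was at 239 against 15.7 CPM in liver PBMC, 73.9 against 31.7 CPM in kidney PBMC, 26.8 against 9.61 CPM in heart PBMC, 38.6 against 19.3 CPM in the library labelled liver TIL, 15.6 against 10.5 CPM in that labelled heart TIL, 15.7 against 5.75 CPM in liver PC, 17.3 against 8.07 CPM in kidney TIL, and 64.2 CPM, from 2 UMIs, against 0 in kidney PC. It was higher in Gzma+ cells in 8 of 8 libraries, with an estimate of 1.41 on the log2 scale (SE 0.28, 95% interval 0.86 to 1.97, adjusted p = 4.7e-04). Klre1 was higher in 7 of 8 libraries, by 0.81 (SE 0.20, adjusted p = 0.011), with 73.9 against 35.0 CPM in the library labelled heart TIL, 50.9 against 30.7 CPM in liver PC and 29.0 against 28.5 CPM in that labelled liver TIL. Both genes passed the filter on low counts (35.9 CPM in at least 2 of 16 sums) only through Gzma+ sums, 4 for Klrg1 and 5 for Klre1, and without it they differed by 1.47 (adjusted p = 1.4e-04) and 0.90 (adjusted p = 0.0086).

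The CD94-NKG2A pair and NKG2D showed differences close to 0 with narrow intervals. Klrd1 differed by 0.12 (95% interval -0.04 to 0.28), Klrc1 by 0.17 (-0.01 to 0.35) and Klrk1 by 0.03 (-0.15 to 0.21). The interval of Klrb1c was wide, 0.67 with bounds of -0.13 and 1.47, and Klrc2 was too rarely counted to be tested. Klrb1c passed the filter only through 2 Gzma- sums, in libraries where it was lower in Gzma+ cells. It was at 30.1 against 57.6 CPM in heart PBMC and 25.9 against 42.2 CPM in kidney PBMC. Without the filter it differed by 0.79 (adjusted p = 0.96). Klra4 was the only gene tested from the list of 17 further Klr genes and was higher by 1.57. Without the filter Klra4 (1.61, adjusted p = 0.0086) and Klra7 (1.24, adjusted p = 0.040) of that list were called. Klra8 was not (1.39, adjusted p = 0.063). Klra2 and Klra13-ps, outside that list, were tested too and not called. Without the filter they differed by -0.14 (adjusted p = 0.96) and 1.59 (adjusted p = 0.39). None of 11 adaptor genes and none of 4 ligand genes was called, 7 of 16 effector genes were higher, including Gzmk (0.76), Gzmb (0.67), Ccl5 (0.62) and Ifng (0.45), and of 14 memory genes 2 were lower, Dapl1 (-1.46) and Tcf7 (-0.87).

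Gzma UMIs were also found in 14.4 to 73.3% of macrophages and monocytes and in 28.6 to 62.5% of B cells, which should not express it, and the part of such RNA in the result was not tested. Without cells that carried markers of another lineage, the Klrg1 difference was 1.22 (adjusted p = 0.10) and that of Klre1 0.84 (adjusted p = 0.12). Klre1 also lost its call without the library labelled heart TIL (0.75, adjusted p = 0.17) or liver PC (0.88, adjusted p = 0.16), at 1000 or more UMIs per cell (0.84, adjusted p = 0.087), with Gzma+ set at 2 or more UMIs (0.82, adjusted p = 0.11), and with a CD8 gate that also asked for a Cd3 UMI and no Ncr1 UMI, a setting chosen after seeing the data (0.64, adjusted p = 0.19), under which Klrg1 kept its call (1.21, adjusted p = 0.011). In the fit after thinning the gates were set again on the thinned counts, so cells could change gate. Both genes then fell below the filter on low counts, and Klrd1 was called higher, at 0.47 (adjusted p = 0.010). In cells gated at their own depth and then thinned, a Klrg1 UMI was found in a median of 1.68% of Gzma+ against 0.428% of Gzma- cells. A Klre1 UMI was found in 2.0 against 0.815%.

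CD8 T cells were next divided by Klrg1 itself in the 5 libraries with at least 10 Klrg1+ cells, 239 cells against 9376 without a Klrg1 UMI, and the level of Klrg1 is left out because it made the groups. Klre1 rose with Klrg1, Klrb1c was called too but passed the filter on low counts only through Klrg1+ sums, and the CD94-NKG2 genes did not pass the test. Of 4726 genes tested, 0.19% were called higher, 0.0635% lower and 0.254% in either direction. Klre1 was at 133 against 46.0 CPM in liver PC, 182 against 68.0 CPM in the library labelled heart TIL, 67 against 27.5 CPM in that labelled liver TIL, 107 against 16.9 CPM in liver PBMC and 55.6 against 60.4 CPM in kidney PBMC, an estimated difference of 1.39 (SE 0.25, adjusted p = 3.8e-05). Klrb1c was higher in 4 of 5 libraries, by 2.39 (SE 0.52, adjusted p = 0.0024), with 56.2 against 9.74 CPM in liver PC and 0 against 4.85 CPM in the library labelled liver TIL. Klrd1 differed by -0.01, Klrc1 by -0.30, Klrk1 by -0.09 and Klrc2 by 1.20.

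A gene was tested if it reached 38.8 CPM in at least 2 of the 10 sums, and Klrb1c did so in 4 Klrg1+ and 0 Klrg1- sums, Klre1 in 5 and 3. Without the filter Klrb1c differed by 2.27 (adjusted p = 8.7e-06) and Klre1 by 1.21 (adjusted p = 0.0060). The Ly49 genes Klra4 (2.97), Klra8 (2.73) and Klra7 (1.85), 3 of 5 genes tested from the list of further Klr genes, and the NK receptor gene Ncr1 (2.62) were called higher. They had passed the filter only through Klrg1+ sums, which leaves these as descriptions. The same holds for the carbonic anhydrase gene Car2 (1.93), which reached at most 37.4 CPM in Klrg1- sums. It was higher in 3 of 5 libraries, with 76.9 against 10.2 CPM in liver PC and 0 against 37.4 CPM in kidney PBMC. Also called higher was Gzma (1.17), whereas the chemokine gene Xcl1 (-1.83), Ighg2b (-1.15) and Wfdc17 (-0.67) were lower. Klra2 and Klra13-ps, outside the list of further Klr genes, were tested too and not called. Without the filter they differed by -0.60 (adjusted p = 0.87) and 2.19 (adjusted p = 1.5e-04). Of a list of effector genes that leaves out Gzma, none of 18 tested was called, and none of 13 memory genes. An Ncr1 UMI was present in 21 of 239 Klrg1+ cells (8.79%) and in 113 of 9376 others (1.21%), and Klrg1+ cells were deeper in 4 of 5 libraries, with a median of 2529 against 1686 UMIs in liver PC, and shallower in kidney PBMC, with 883.5 against 1055.5 UMIs. With a CD8 gate that also asked for a Cd3 UMI and no Ncr1 UMI, Klre1 was at 0.43 (adjusted p = 0.95) and Klrb1c at 1.32 (adjusted p = 0.88), neither of them called. DESeq2's Wald test gave Klre1 an adjusted p of 0.059. Without liver PC their adjusted p-values were 0.58 and 0.51, without the library labelled heart TIL that of Klrb1c was 0.083, and without cells with markers of another lineage Klre1 was at 0.71 (adjusted p = 0.94).

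**Figure D4:**
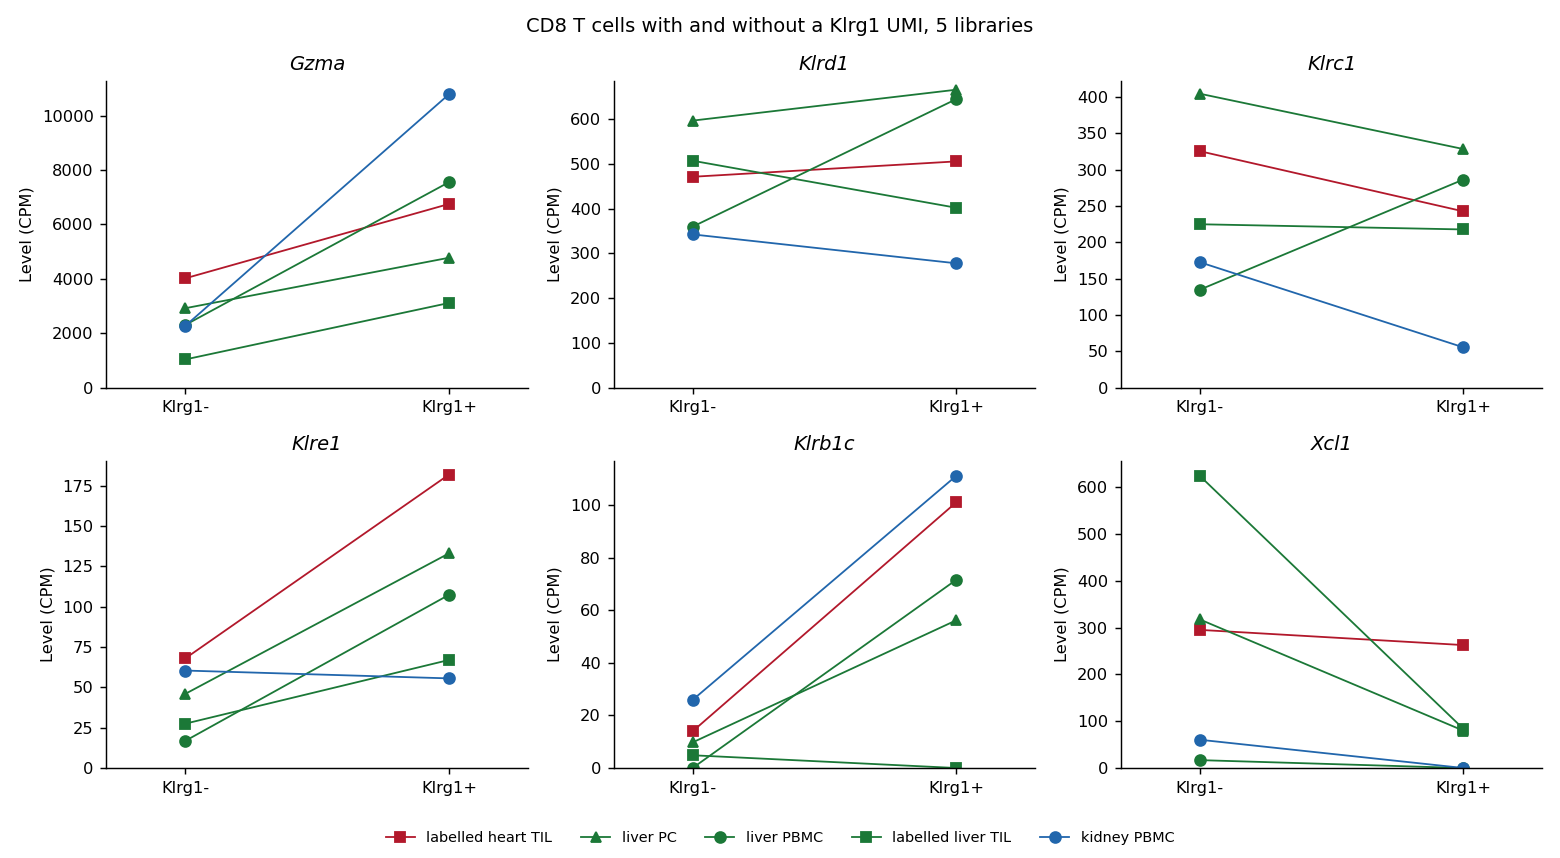
Level in CPM of Gzma, Klrd1, Klrc1, Klre1, Klrb1c and Xcl1 in CD8 T cells without and with a Klrg1 UMI, 1 line per library for the 5 libraries compared. The lines of Klre1 and Klrb1c climb in 4 of 5 libraries, and those of Klrd1 and Klrc1 cross.

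Infiltrating cells were set against blood with the organs as replicates, 3 TIL against 3 PBMC libraries, and no member that was tested was called. Low counts kept Klrc2 out of all 3 fits, Klrb1c out of both CD8 T cell fits, Klrg1 out of those of NK and Gzma- cells and Klre1 out of that of Gzma- cells. Without the filter Klrb1c in Gzma- cells was called, at -4.04 (adjusted p = 0.012), and no other of these was. It rested on 6 UMIs in heart PBMC, 4 in kidney PBMC and 3 in the library labelled liver TIL, with none in the remaining PBMC and TIL libraries. The exchange of the libraries labelled heart TIL and liver TIL would leave these fits as they are. In Gzma+ CD8 T cells 3 of 3624 genes were called (0.0828%), namely C1qa (7.40), Cxcl9 (5.43) and Spp1 (4.38), genes of macrophages, named after their values were seen. The macrophage list stood at 3612 to 9893 CPM in all CD8 T cells of the TIL libraries and 878 to 7688 CPM in those of the PBMC libraries, and its part in the members' values was not tested. Klrg1 was at 15.6, 17.3 and 38.6 CPM in the TIL libraries and at 26.8, 73.9 and 239 CPM in the PBMC libraries, groups that overlapped. By organ as labelled it was lower in TIL in 3 of 3 pairs, and in 2 of 3 if the libraries labelled heart TIL and liver TIL are exchanged. The difference was -2.17 (SE 0.79, 95% interval -3.98 to -0.35, adjusted p = 0.33). It passed the threshold with organ as a block, at -2.02 (adjusted p = 2.3e-04), a fit that rests on the organ labels, and without a filter on low counts, at -1.99 (adjusted p = 0.0044), and without liver PBMC it was -1.11 (adjusted p = 0.68). In the same cells Klrd1 differed by -0.31 (95% interval -1.26 to 0.64), Klrc1 by 0.07 (-0.80 to 0.94), Klrk1 by -0.05 (-0.79 to 0.69) and Klre1 by -0.51 (-1.59 to 0.58), intervals that leave room for differences in either direction.

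In NK cells the TIL group included kidney TIL with only 2 cells and 1228 UMIs. Of 773 genes, 3 were called (0.388%), the macrophage gene C1qb (8.01), the plasma cell gene Jchain (6.33) and Snord13 (3.61). Klrd1 was at 593, 332 and, from 1 UMI, 814 CPM in the TIL libraries and at 1246, 632 and 585 CPM in the PBMC libraries, a difference of -0.93 (95% interval -1.93 to 0.07, adjusted p = 0.60). Klre1 differed by -0.89, Klrb1c by -1.09, Klrk1 by -0.50 and Klrc1 by 0.70, all with intervals that included 0. Without kidney TIL, Klrd1 differed by -0.89 (adjusted p = 0.58), Klre1 by -0.76 (adjusted p = 0.73) and Klrb1c by -1.52 (adjusted p = 0.46), and 5 genes were called. In Gzma- CD8 T cells 0 of 2754 genes were called (0.0%) by edgeR, 391 had an unadjusted p under 0.05 and DESeq2 called 72, and Klrd1 (-0.17), Klrc1 (0.01) and Klrk1 (0.14) had adjusted p-values of 0.89 to 0.99. Whether the Gzma difference itself was unequal between TIL and PBMC was tested as an interaction over 4825 genes, of which 0 were called (0.0%) by edgeR, 305 had an unadjusted p under 0.05 and DESeq2 called 0. The interaction was -2.39 for Klre1 (95% interval -4.17 to -0.62, adjusted p = 0.52), 2.56 for Klrb1c (0.40 to 4.73, adjusted p = 0.62) and -1.36 for Klrg1 (-2.89 to 0.16, adjusted p = 0.79). In this fit Klrb1c passed the filter on low counts only through 2 Gzma- sums, and Klre1 and Klrg1 only through Gzma+ sums.

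The balance between the inhibitory and activating partners of CD94 was read from the share of Klrc2 among the UMIs of Klrc1 and Klrc2. In NK cells Klrc2 supplied 10 of 19 UMIs in liver PBMC (52.6%, exact Clopper-Pearson 95% interval 28.9 to 75.6%) and 13 of 28 in kidney PBMC (46.4%, 27.5 to 66.1%). In liver PC the share was 9 of 29 (31.0%, 15.3 to 50.8%) and in heart PBMC 3 of 8 (37.5%, 8.52 to 75.5%). The library labelled liver TIL had 2 of 6 (33.3%, 4.33 to 77.7%), and that labelled heart TIL 0 of 9, an interval of up to 33.6%. In CD8 T cells the share was 2.93 to 11.1% over the 8 libraries, with 149 of 4286 UMIs in liver PC (3.48%, 2.95 to 4.07%). The share in NK cells exceeded that of CD8 T cells of the same library in 5 of 6 libraries, and in the libraries labelled heart TIL and liver TIL the intervals of both cell types overlapped. Klrc1 and Klrc2 are close paralogs and reads that aligned to more than 1 place had been removed, so the split between them is uncertain in both cell types.

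Whether CD94 and NKG2A messages lay in the same CD8 T cells was read at equal depth. At 500 UMIs per cell, a Klrd1 UMI was present in 35.0% of the 902 CD8 T cells of liver PC with a Klrc1 UMI and in 23.9% of the 3901 without. The share was higher beside Klrc1 in 7 of 8 libraries, and kidney PBMC was the exception with 9.52 against 15.4%. The exact 95% intervals of both shares were apart only in liver PC and the library labelled liver TIL (32.0 against 20.6%), and the shares were close in the library labelled heart TIL (21.6 against 19.9%), kidney TIL (6.85 against 6.16%) and kidney PC (6.25 against 4.95%). In NK cells the numbers were small and uneven: a Klrd1 UMI was held by 8 of 8 cells with a Klrc1 UMI and 16 of 118 without in liver PBMC, by 4 of 9 and 25 of 62 in kidney PBMC, and by 0 of 2 and 15 of 67 in heart PBMC.

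The genes whose levels ran most like each member were found over 23 sums of cells (NK, Gzma+ and Gzma- CD8 T cells of each library) by Pearson correlation of log2(CPM + 10) among 2768 genes. Klre1 ran most like the Ly49 gene Klra7 (r = 0.95), Klrb1c and Klrk1 like Ncr1 (0.92 and 0.85), Klrc2 like the Ly49 gene Klra4 (0.79) and Klrg1 like Klra9 (0.73). Klrd1 was nearest to Txn1 (0.86) and Klrc1 to Psmd14 (0.92). One of the sums held the 2 NK cells of kidney TIL, and over the other 22 sums, a setting chosen after seeing the data, the nearest genes of Klrd1, Klrc1, Klrk1 and Klrb1c became B2m (0.88), Gimap4 (0.76), Klre1 (0.92) and Klra7 (0.93). Among the members over the 22 sums, Klre1 went with Klrb1c at 0.87, while Klrc1 had correlations of -0.30 to 0.27 with the other 6. The sums share libraries and the contrast of NK with CD8 T cells, and the NK gate was set by Ncr1, so these are descriptions only.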

How the data were processed

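Single cells from liver, heart and kidney transplants and blood had been profiled by Microwell-seq. Per the study's methods, the authors processed reads with the Drop-seq core tools, aligned them to GRCm38 using STAR, dropped reads with several alignments, merged UMIs within 1 edit of each other and deposited raw UMI counts per gene and barcode, 1 table per library; the GENCODE release was not given in the sources used here. The study's minimum of 500 UMIs was applied here; its mitochondrial limit of 10% was an alternative. Each of the 8 samples was its own group.

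Cells were gated by marker UMIs. No doublet caller was run, and cells with markers of another lineage were left out as an alternative. Raw counts were summed per library and gate, with at least 10 cells per sum in comparisons within libraries and any number above 0 between TIL and PBMC, and tested with edgeR 4.0.16 in R 4.3.3 (TMM, filterByExpr, robust quasi-likelihood F test, library as a block in splits within libraries, Benjamini-Hochberg over all genes tested, threshold 0.05). Each test was tried on simulated counts. Alternatives included DESeq2 1.42.0 (size factors, Wald test), other filters and gates, thinning to 500 UMIs and leaving out libraries. Fits after thinning set the gates on the thinned counts, whereas shares at equal depth kept the gates of full depth. CPM is the share of a gene in the UMIs of the gated cells, times 1e+06. Bars and intervals on levels of single libraries are exact Poisson intervals, and those on shares of UMIs or cells are exact binomial intervals (Clopper-Pearson). Both cover counting error only. Libraries of 1 organ came from 2 recipients and can share them, so p-values measure the spread between these libraries. Python 3.11.15 with numpy 2.4.6, scipy 1.17.1, pandas 2.3.3 and matplotlib 3.10.9 was used for sums and figures.

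Gene positions came from GENCODE annotation and promoters from RefSeq. The named genes were the 7 members, the genes called in the Klrg1 split, the genes nearest to each member in level, and up to 4 called genes of each list. The members and lists were chosen with earlier results of these data known.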

Additional observations from a re-analysis of the deposited data

Results flagged for a closer look

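There were 4 levels that stood far from the other libraries of their gate, judged by the gap of the highest or lowest library to its nearest neighbour against the whole range. The groups tested were the levels of the 7 genes in NK, Gzma+ and Gzma- CD8 T cells and their folds per library within libraries. For normally distributed values chance flags about 1 in 20 groups so tested, and whether these levels were so distributed was not tested. Some of the 4 flags can therefore be due to chance. No fold was flagged. In the NK cells of kidney PBMC, Klre1 was at 1349 CPM, Klrb1c at 616 CPM and Klrg1 at 469 CPM, each the highest of 6 libraries. These cells also had the lowest macrophage marker level of the 6 (1715 CPM) and the lowest neutrophil marker level of the PBMC libraries (24053 CPM), and the part of this was not tested. In the Gzma+ CD8 T cells of liver PBMC, Klrg1 was at 239 CPM, the highest of 8 libraries. Kidney PBMC and liver PBMC were each 1 library, so the spread between animals behind these values was not measured.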

How the results depend on the processing

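Of the members' differences under the alternatives, 503 kept direction and side of the threshold, 19 lost a call, 4 gained one and 41 changed sign; the causes were not tested. The 33 genes called in the Gzma split became 60 with DESeq2's Wald test, 9 after thinning, 17 without both libraries labelled heart TIL and liver TIL and 21 with at least 2 Gzma UMIs, and 16 to 39 with each library left out (16 without liver PC). The 291 called between NK and CD8 T cells became 179 with DESeq2, 454 without a filter, 127 at 1000 or more UMIs, 99 after thinning and 109 with at least 2 Ncr1 UMIs, and 192 to 297 with each library left out (192 without liver PBMC). The 12 called in the Klrg1 split became 33 with DESeq2's size factors, 7 with its Wald test, 51 without a filter, 31 at 1000 or more UMIs, and 4 both without cells of another lineage and with the Cd3 and Ncr1 condition, and 9 to 39 with each library left out (39 without kidney PBMC). Between TIL and PBMC, the 3 called in NK cells became 1 with size factors, at 1000 or more UMIs and after thinning, 12 with the Wald test, 41 without a filter, 88 with the organ block and 13 with PC added to TIL (0 to 84 with each library left out). The 3 in Gzma+ cells became 68 with the Wald test, 291 without a filter, 6 after thinning and without shared barcodes, 8 without cells of another lineage, 554 with the organ block and 62 with PC added (0 to 86). The 0 in Gzma- cells became 72, 202, 1, 1, 6, 293 and 32 under the same settings, and 2 at 1000 or more UMIs (0 to 26). Without kidney PBMC the TIL counts reached 84, 86 and 26. The interaction had 1 with size factors (0 to 5).

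Signs changed only in differences that had not been called. In the interaction, Klrc1 was at 0.081 with the Wald test, 0.053 at 1000 or more UMIs and 0.16 after thinning, and without both libraries labelled heart TIL and liver TIL Klrd1 was at 0.17 and Klrk1 at 0.12. In TIL against PBMC, Klrc1 in Gzma- cells was at -0.0085 with the Wald test, -0.0045 with size factors, -0.17 at 1000 or more UMIs and -0.21 after thinning, Klrd1 in Gzma- cells at 0.24 without a filter and 0.019 after thinning, Klrk1 in Gzma+ cells at 0.042 without a filter, 0.013 with the organ block and 0.082 without cells of another lineage, and Klrk1 in NK cells at 0.053 in that last setting. In the Klrg1 split, Klrd1 was at 0.052 with the Wald test, 0.068 with size factors, 0.062 at 1000 or more UMIs, 0.032 without shared barcodes and 0.13 without both libraries. With each library left out, Klrk1 ranged from -0.0084 to 0.11 in the Gzma split, and in the Klrg1 split Klrd1 from -0.10 to 0.087 and Klrk1 from -0.13 to 0.030. For TIL against PBMC the ranges in Gzma+ cells were -0.52 to 0.030 (Klrd1), -0.17 to 0.63 (Klrc1) and -0.27 to 0.23 (Klrk1), in Gzma- cells -0.66 to 0.30, -0.14 to 0.18 and -0.041 to 0.61, and in the interaction -0.53 to 0.068, -0.49 to 0.42 and -0.87 to 0.036. The median Klrc1 level in NK cells moved from 221 to 99.2 CPM at 1000 or more UMIs and to 135 CPM without cells of another lineage. DESeq2 gave no adjusted p for any of 6 members in the Gzma split, and Klrg1+ cells could not be tested after thinning. Klrc2 and Klrg1 had the fewest UMIs of the members, 545 and 975 in all, followed by Klrb1c with 1045.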
